A study of Mus musculus with 6 samples.

Results

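The 9 genes described here encode the TGF-β ligands (*Tgfb1*, *Tgfb2* and *Tgfb3*), their receptors (*Tgfbr1*, *Tgfbr2* and *Tgfbr3*), the latent TGF-β binding protein *Ltbp1*, the signal transducer *Smad3* and the inhibitor *Smad7*. They were chosen by name from the pathway, not by their values, although earlier results of these data were known. All 9 were found among the 20076 genes of the expression table. RNA was sequenced from 6 primary ovarian tumors, 3 grown in wild-type (WT) hosts and 3 in hosts that lacked *Tgm2*. The WT hosts were C57BL/6 mice, and all hosts were 6 to 10 weeks old when used. Every mouse received the same ovarian cancer line, ID8 *Trp53*-/- *Brca1*-/-, in which CRISPR-Cas9 had removed both named genes, into the ovarian bursa on both sides, and tumors were taken 6 weeks later. The knockout therefore belonged to the host, while the injected cancer cells were the same line in both groups, so that whole-tumor RNA held transcripts of both origins. The table's values per tumor added up to between 32316613 and 37717165, and are referred to below as normalized counts.

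TGF-β is secreted in a latent form, in which the ligand is held by its own propeptide and, through that propeptide, by a latent TGF-β binding protein anchored in the extracellular matrix. Integrins and proteases release the ligand, the type II receptor TGFBR2 then phosphorylates the type I receptor TGFBR1, and SMAD2 and SMAD3 carry the signal to the nucleus together with SMAD4, while SMAD7 acts as a feedback inhibitor. Transglutaminase 2 (TG2), the product of *Tgm2*, crosslinks matrix proteins, and latent TGF-β complexes are among its known substrates, which makes the RNA level of these genes in tumors of *Tgm2* knockout hosts a natural question. RNA levels do not measure how much latent ligand was released or how much SMAD protein was phosphorylated.

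None of the 9 genes differed between genotypes beyond the limits used (adjusted p below 0.05 and an absolute log2 fold change above 1 in a limma fit across 19667 genes). None reached an unadjusted p below 0.05 either, and none had WT and knockout tumors that did not overlap. Across all genes tested, 0.102% were higher past both limits and 0% lower, 3.40% were higher and 2.38% lower at an unadjusted p below 0.05, and in 5.18% every knockout tumor lay above every WT tumor while in 5.33% every one lay below. The log2 fold change (knockout minus WT) was positive for 7 of the 9 genes and negative for 2, with a median of 0.16, beside -0.03 over all genes tested. For the ligands and *Ltbp1*, tumors of 1 genotype differed by more than the group means did: within the WT group the highest tumor exceeded the lowest by 3.02-fold for *Ltbp1*, 2.56-fold for *Tgfb1*, 2.45-fold for *Tgfb3* and 2.23-fold for *Tgfb2*.

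The promoters of *Tgfb1*, *Tgfb2* and *Ltbp1* are shown because the ligands *Tgfb1* and *Tgfb2*, whose RNAs were both highest in WT tumor 1 and lowest in WT tumor 3, have promoters of different make-up, and because *Ltbp1* has 2 annotated starts whose transcripts a gene-level value adds together. The sequences are from RefSeq on build GRCm38.p6, run from 250 bases before to 50 after the start, and are written 5′ to 3′ along the gene's own strand. Capitals mark the SMAD-binding core CAGAC, the GC box GGGCGG and the TATA box TATAAA, each searched on both strands, so that GTCTG and CCGCCC are the same motifs read on the other strand. The first is the *Tgfb1* promoter at chr7:25686752-25687051 (plus strand), the second the *Tgfb2* promoter at chr1:186705940-186706239 (minus strand), and the last a pair of *Ltbp1* promoters at chr17:75005279-75005578 and chr17:75178531-75178830 (plus strand).
Tgfb1: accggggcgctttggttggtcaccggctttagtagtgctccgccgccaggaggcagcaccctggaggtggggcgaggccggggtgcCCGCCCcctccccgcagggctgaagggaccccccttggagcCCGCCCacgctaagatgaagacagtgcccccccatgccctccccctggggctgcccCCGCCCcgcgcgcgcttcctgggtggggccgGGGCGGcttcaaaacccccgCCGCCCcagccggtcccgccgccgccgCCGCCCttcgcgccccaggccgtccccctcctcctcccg
Tgfb2: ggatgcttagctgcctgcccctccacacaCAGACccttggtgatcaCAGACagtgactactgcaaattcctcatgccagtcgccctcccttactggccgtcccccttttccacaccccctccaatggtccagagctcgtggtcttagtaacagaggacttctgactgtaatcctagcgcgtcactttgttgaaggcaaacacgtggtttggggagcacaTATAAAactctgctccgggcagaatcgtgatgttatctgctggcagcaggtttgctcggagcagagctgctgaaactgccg
Ltbp1 upstream start: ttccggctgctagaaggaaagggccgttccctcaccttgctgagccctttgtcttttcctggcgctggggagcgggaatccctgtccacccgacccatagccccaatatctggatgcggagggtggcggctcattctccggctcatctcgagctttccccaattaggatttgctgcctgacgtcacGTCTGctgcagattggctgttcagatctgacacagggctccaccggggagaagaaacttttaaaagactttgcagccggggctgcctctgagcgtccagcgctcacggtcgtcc
Ltbp1 downstream start: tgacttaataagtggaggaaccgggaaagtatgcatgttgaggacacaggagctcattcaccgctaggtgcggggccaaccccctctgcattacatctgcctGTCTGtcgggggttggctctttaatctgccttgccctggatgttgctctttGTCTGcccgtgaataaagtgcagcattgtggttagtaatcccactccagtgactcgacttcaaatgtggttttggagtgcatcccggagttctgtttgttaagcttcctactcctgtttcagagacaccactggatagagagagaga
The *Tgfb1* window held 6 GC boxes and neither of the other motifs. The *Tgfb2* window held 2 CAGAC motifs and 1 TATA box. The *Ltbp1* windows held 1 CAGAC at the upstream start and 2 at the downstream start. Among 32851 mouse promoters of the same length, 49.6% held CAGAC, 35.7% GGGCGG and 13.6% TATAAA, with at least 1 match counted, and how often a window holds several was not counted. A match describes the letters only.

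*Tgm2* itself checks the labels. Its normalized counts were 14978, 12155 and 13180 in WT and 5853, 6071 and 8157 in knockout tumors. The groups did not overlap, at a log2 fold change of -1.02 ± 0.22 (SE, limma adjusted p = 0.391), so transcript counted at *Tgm2* was lower but not absent in the knockout hosts' tumors. Only the hosts lacked *Tgm2*, and the paper describes TG2 expression of the injected line as similar to that of another mouse line. The part of the injected cells in these counts was not tested. Counts at *Tgm2* (chr2:158116402-158146436, minus strand) include 1003 exon bases that genes on the other strand share, among them *Rprd1b*. Which part of *Tgm2* the allele lacks and whether the library kept strand are not given in the sources used here.

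**Figure D1:**
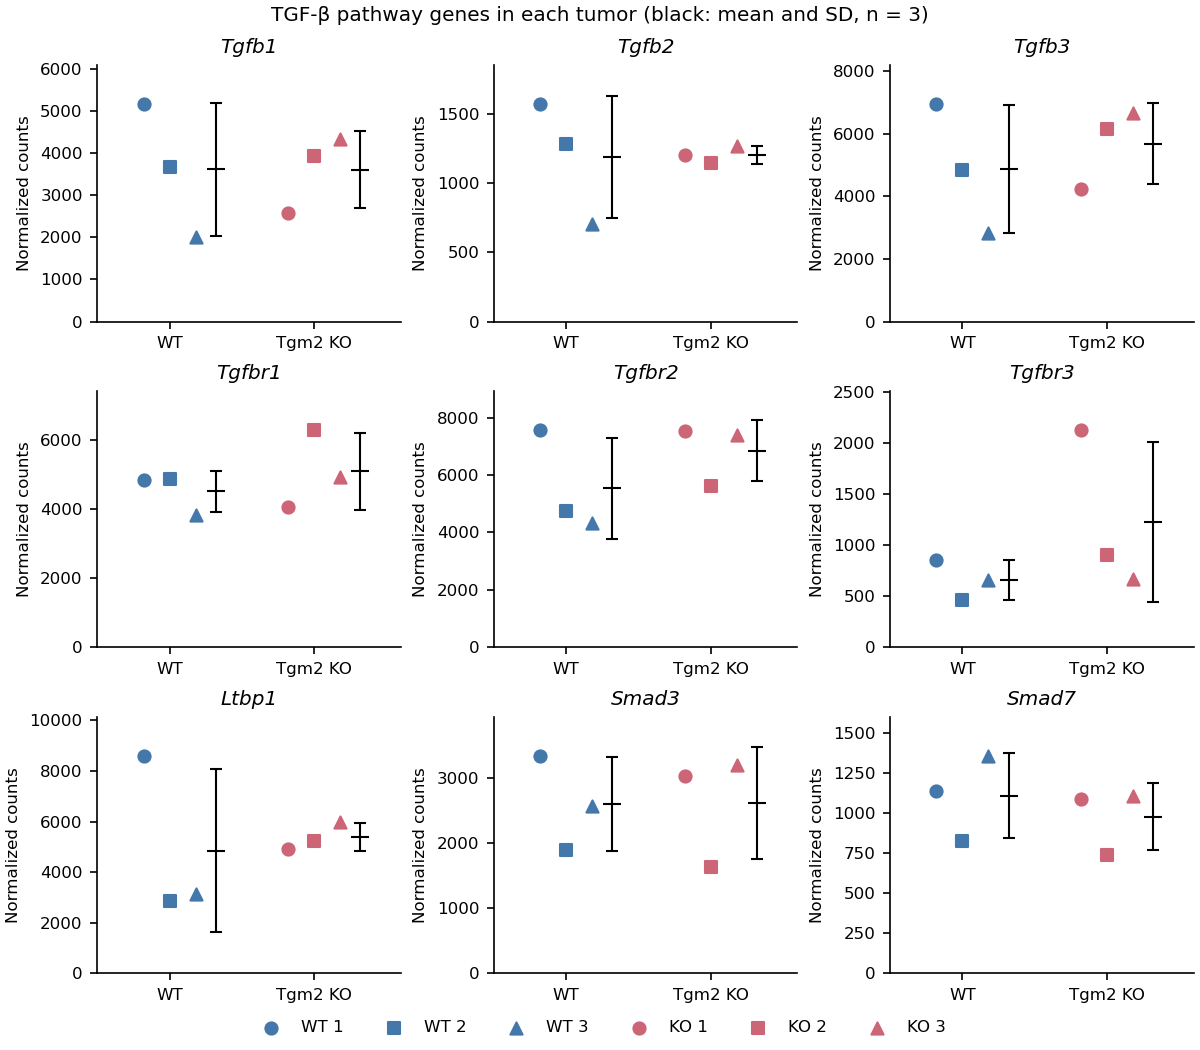
Normalized counts of the 9 TGF-β genes in each of the 6 tumors, WT in blue and *Tgm2* knockout in red, with horizontal bars for the group means and the vertical axis of each panel starting at 0. The WT and knockout tumors overlap in all 9 panels, and WT tumor 1 is the highest of the 6 in 6 of them.

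The ligands were expressed in every tumor. *Tgfb1*, which encodes the best-known ligand of immune and stromal cells (chr7:25687002-25705077, plus strand), had normalized counts of 5159, 3667 and 2018 in WT and 2571, 3936 and 4327 in knockout tumors. The WT tumors held both the highest and the lowest value, with the knockout tumors between them. The group means were 3615 ± 1571 and 3611 ± 922 (SD, n = 3 each), and the log2 fold change was 0.07 ± 0.36 (SE), with a 95% confidence interval from -0.75 to 0.88 (limma adjusted p = 0.985).

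*Tgfb3*, the ligand needed for fusion of the palate (chr12:86056745-86079041, minus strand), had 6940, 4850 and 2837 normalized counts in WT and 4239, 6149 and 6675 in knockout tumors. WT tumor 1 was again the highest and WT tumor 3 the lowest, and the groups overlapped. The log2 fold change was 0.29 ± 0.34 (SE), with an interval from -0.49 to 1.06 (limma adjusted p = 0.919). Exons of *Tgfb3* share 420 bases with genes on the opposite strand, of which *Ttll5* had normalized counts of 1299, 1098 and 703 in WT and 1178, 1089 and 1384 in knockout tumors.

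*Tgfb2*, the ligand that binds TGFBR2 well only with the help of TGFBR3 (chr1:186622792-186705989, minus strand), had 1569, 1284 and 704 normalized counts in WT and 1202, 1142 and 1271 in knockout tumors. The knockout tumors lay within 1.11-fold of each other and inside the WT range. Its log2 fold change was 0.10 ± 0.30 (SE), with an interval from -0.59 to 0.79 (limma adjusted p = 0.970). The 3 ligands thus had the same highest and the same lowest WT tumor, and knockout tumor 1 was the lowest of its group for *Tgfb1* and *Tgfb3* but not for *Tgfb2*.

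The ratio of *Tgfb1* to *Tgfb3* in normalized counts varied less between tumors than either gene. Its size depends on the lengths of both genes, but its change from tumor to tumor does not. It was 0.743, 0.756 and 0.711 in WT and 0.607, 0.640 and 0.648 in knockout tumors, and these ranges did not overlap. This ratio was picked out after its values were seen, and it was 1 of 2 ratios without overlap among the 36 pairs that 9 genes allow. Of all single genes, 5.18% had every knockout tumor above every WT tumor and 5.33% every one below. The 2 of 36 are therefore not read as a result about the ratios. The other ratio without overlap was *Tgfbr2* to *Smad7*, at 6.62, 5.71 and 3.19 in WT and 6.90, 7.59 and 6.67 in knockout tumors. Neither ratio was tested.

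Summed counts of macrophage markers were 182696, 129539 and 84890 in WT and 86735, 280475 and 185824 in knockout tumors. Like *Tgfb1*, they were lowest in WT tumor 3 and next lowest in knockout tumor 1, but they were highest in knockout tumor 2, where *Tgfb1* was not. All 12 macrophage markers had a positive log2 fold change, with a median of 0.45, and *Apoe*, a lipid carrier, made up 49.9% of their sum. Fibroblast markers summed to 42353, 32875 and 20599 in WT and 53033, 46357 and 40445 in knockout tumors, with all 12 fold changes positive, a median of 0.58 and the collagen gene *Col6a1* as the most abundant, at 28.7% of the sum. None of the markers in either list was at 0 in any tumor, and their part in the *Tgfb1* values was not tested. In whole-tumor RNA, fewer cells of a type and less RNA per cell cannot be told apart.

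*Ltbp1* encodes the protein that tethers latent TGF-β to the matrix (chr17:75005568-75392512, plus strand). In normalized counts it measured 8591, 2843 and 3129 in WT and 4918, 5223 and 5996 in knockout tumors. The knockout tumors were within 1.22-fold of each other and lay between WT tumor 1, which was the highest, and the other two WT tumors, which were the lowest. The group means were 4854 ± 3239 and 5379 ± 556 (SD, n = 3 each), and the log2 fold change was 0.34 ± 0.39 (SE), with an interval from -0.57 to 1.24 (limma adjusted p = 0.919). Without WT tumor 1 it was 0.85, at an unadjusted limma p of 0.00485 and an adjusted p of 0.497. Over the 15 alternatives run, the estimate went as low as 0.048, and 0.85 was the highest.

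The other latent TGF-β binding proteins did not share this shape in full. *Ltbp2* had 5367, 2035 and 2529 normalized counts in WT and 1960, 4075 and 7265 in knockout tumors. *Ltbp3* had 15120, 8809 and 14324 in WT and 12159, 10536 and 13410 in knockout tumors. *Ltbp4* had 10495, 6479 and 8480 in WT and 16202, 8041 and 11100 in knockout tumors. WT tumor 1 was the highest WT tumor for all 3 genes, and the groups overlapped for each, at log2 fold changes of 0.36, -0.05 and 0.44.

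Of the 22 genes listed for latency and activation, all were tested, none passed both limits, none reached an unadjusted p below 0.05 and none had groups without overlap. Their fold changes were positive for 15 and negative for 7, with a median log2 value of 0.23. The 3 most abundant per kb of exon were *Bgn*, a small matrix proteoglycan that binds TGF-β, and the integrin subunits *Itgb1* and *Itgb5*, which had log2 fold changes of 0.29 ± 0.45, -0.03 ± 0.34 and 0.39 ± 0.30 (SE). *Bgn* had 90076, 49670 and 36608 normalized counts in WT and 47924, 70706 and 88876 in knockout tumors, with WT tumor 1 the highest and WT tumor 3 the lowest, as for the ligands. The integrin subunit *Itgb6*, part of an epithelial activator of latent TGF-β, was singled out after its values were seen, since WT tumor 3 had 531 normalized counts and the other 5 tumors between 9.61 and 67.9. Of the 12 epithelial and cancer cell markers, WT tumor 3 was the highest tumor for 7, among them *Epcam* (8047, the others between 90.5 and 1307) and *Cdh1* (6588, the others between 224 and 1876), and the lowest for 2, *Wt1* and *Upk3b*. The part of epithelial RNA in the *Itgb6* value was not tested.

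The receptors varied less between tumors than the ligands, except for *Tgfbr3*. *Tgfbr1*, the type I receptor kinase (chr4:47353222-47414931, plus strand), had 4842, 4893 and 3838 normalized counts in WT and 4079, 6295 and 4948 in knockout tumors. The groups overlapped, with the highest value in knockout tumor 2 and the lowest in WT tumor 3. The log2 fold change was 0.16 ± 0.22 (SE), with an interval from -0.35 to 0.67 (limma adjusted p = 0.934).

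*Tgfbr2*, the ligand-binding type II receptor kinase (chr9:116084293-116175360, minus strand), had 7558, 4731 and 4329 normalized counts in WT and 7527, 5617 and 7388 in knockout tumors. WT tumor 1 was level with the upper knockout tumors, while the other two WT tumors lay below all 3 knockout tumors. The log2 fold change was 0.34 ± 0.26 (SE), with an interval from -0.26 to 0.93 (limma adjusted p = 0.896). Without WT tumor 1 it was 0.58, and over the 15 alternatives run it ranged from 0.18 to 0.82.

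*Tgfbr3*, the co-receptor betaglycan (chr5:107106570-107289629, minus strand), had the widest range of the 9 genes, at 859, 470 and 661 normalized counts in WT and 2129, 903 and 669 in knockout tumors. Knockout tumor 1 stood apart from the rest, and knockout tumor 3 was below WT tumor 1. The group means were 663 ± 195 and 1234 ± 784 (SD, n = 3 each). The log2 fold change of 0.76 ± 0.43 (SE) was the largest of the 9 in size, with an interval from -0.23 to 1.74 (limma adjusted p = 0.891), and it was 0.27 without knockout tumor 1.

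Knockout tumor 1 was also the highest for ovarian granulosa and theca markers, which summed to 39678, 34901 and 25286 in WT and 77912, 29744 and 37950 in knockout tumors. The granulosa cell factor *Foxl2* had 1282 normalized counts there, against 23.7 to 219 in the other 5 tumors, and the steroidogenic enzyme *Hsd3b1* had 25704, against 1.07 to 5526. The most abundant gene of this list, the receptor *Amhr2*, made up 48.2% of the sum and was lowest in that tumor, at 14265. Of the 11 listed genes, 10 were tested, with a median log2 fold change of 0.72 that was -0.40 without knockout tumor 1, and 2 were at 0 in at least 1 tumor. The part of ovarian RNA in the *Tgfbr3* values was not tested.

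**Figure D2:**
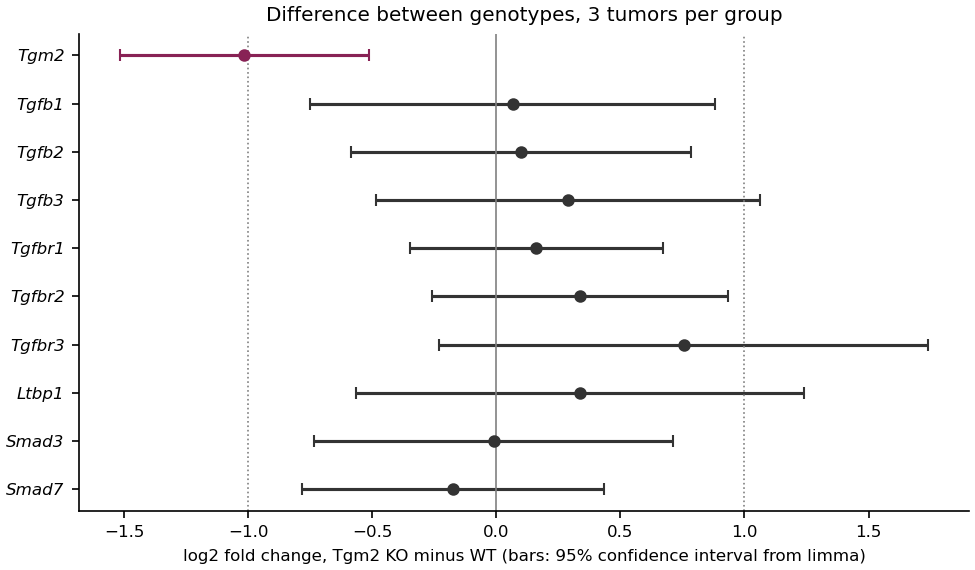
Log2 fold change of *Tgm2* and of the 9 TGF-β genes (horizontal axis, knockout minus WT), with points for the limma estimate and bars for its 95% confidence interval, 3 tumors per group, and dotted lines at the limit of 1 in either direction. The interval of each TGF-β gene includes 0, and those of *Tgfb3*, *Tgfbr3* and *Ltbp1* reach past 1.

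The transducer and the inhibitor were the genes with negative estimates. *Smad3*, which is phosphorylated by the activated receptor (chr9:63646767-63757994, minus strand), had 3329, 1887 and 2559 normalized counts in WT and 3026, 1628 and 3190 in knockout tumors. The group ranges nearly coincided, and the log2 fold change was -0.01 ± 0.32 (SE), with an interval from -0.73 to 0.71 (limma adjusted p = 0.997). *Smad7* had 1141, 829 and 1358 normalized counts in WT and 1091, 740 and 1108 in knockout tumors. The groups overlapped, and the log2 fold change was -0.17 ± 0.27 (SE), with an interval from -0.78 to 0.43 (limma adjusted p = 0.939).

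Both SMAD genes had their lowest values in WT tumor 2 and knockout tumor 2, a different order from the ligands. *Smad7* was highest in WT tumor 3, where all 3 ligands were lowest. The exact two-sided permutation test of 3 against 3 tumors cannot give a p below 0.1, and it gave 0.2 for *Tgfbr3*, 0.4 for *Tgfbr1* and *Tgfbr2*, 0.5 for *Ltbp1* and *Smad7*, 0.7 for *Tgfb3*, 0.9 for *Tgfb1*, and 1 for *Tgfb2* and *Smad3*.

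**Figure D3:**
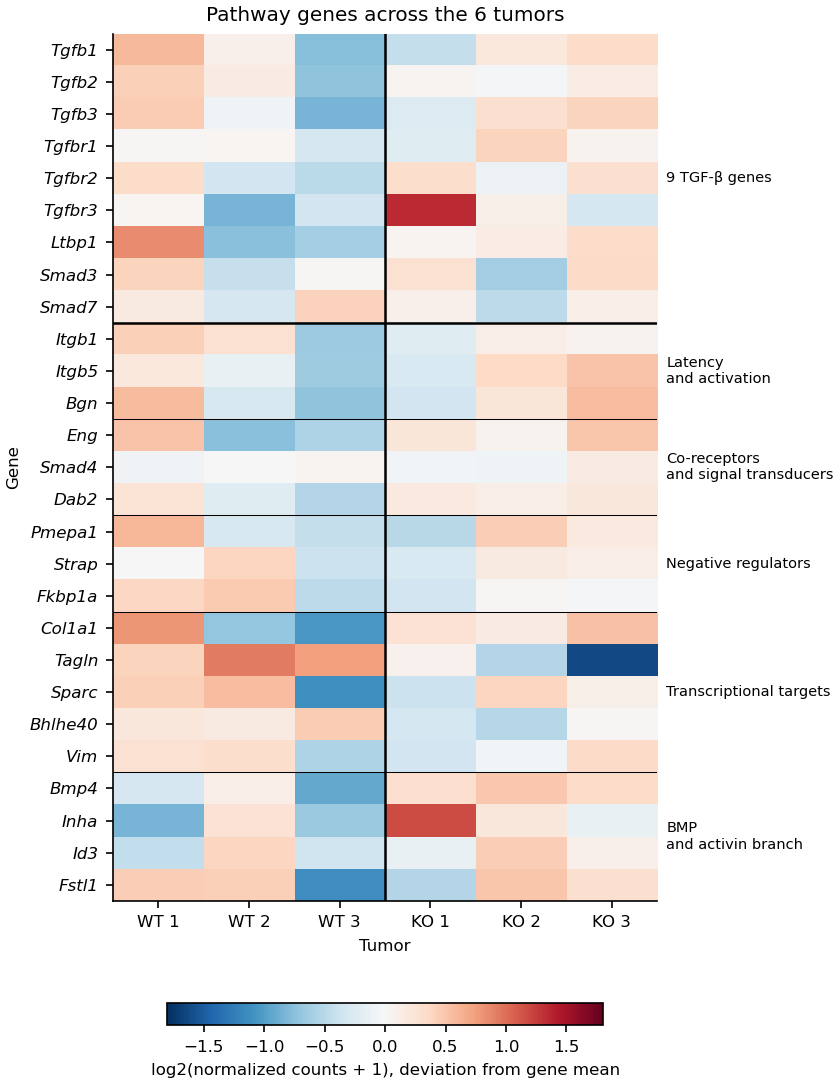
Deviation of each of the 9 TGF-β genes and of the named pathway genes (rows) from its own mean over the 6 tumors (columns), on the log2 scale, red above and blue below the mean. The 3 ligands and *Ltbp1* are red in WT tumor 1 and blue in WT tumor 3, while the deepest red among the 9 genes is *Tgfbr3* in knockout tumor 1.

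Counting over the 9 genes, WT tumor 1 was the highest of the 6 tumors for 6 genes and WT tumor 3 the lowest for 5. Knockout tumor 3 was neither the highest nor the lowest for any. Leaving out WT tumor 3 took the median log2 fold change of the 9 genes from 0.16 to -0.00106, and no choice of left-out tumor brought a TGF-β gene past both limits.

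Levels of different genes were compared per kb of exon, on the scale of normalized counts per kb. *Tgfb3* had the highest mean over the 6 tumors at 1561, followed by *Tgfbr2* at 756, *Tgfbr1* at 737, *Tgfb1* at 717, *Ltbp1* at 479, *Smad3* at 470, *Smad7* at 231, *Tgfb2* at 206 and *Tgfbr3* at 145. The ranges over tumors of every pair of neighbours in this order overlapped. *Tgfb3* exceeded *Tgfbr2* in 6 of 6 tumors, *Tgfb1* exceeded *Ltbp1* in 6 of 6 and *Smad3* exceeded *Smad7* in 6 of 6, while *Tgfbr2* exceeded *Tgfbr1* in 3 of 6 and *Ltbp1* exceeded *Smad3* in 2 of 6. The places of *Tgfb1*, *Tgfb3*, *Tgfbr2* and *Ltbp1* depended on the length used. Per kb of the longest coding transcript, rather than of all exons, *Tgfb1* came first at 1661, above *Tgfb3* at 1561, *Tgfbr1* at 837, *Ltbp1* at 767 and *Tgfbr2* at 765, while *Tgfbr1* and the last 4 genes kept their places.

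**Figure D4:**
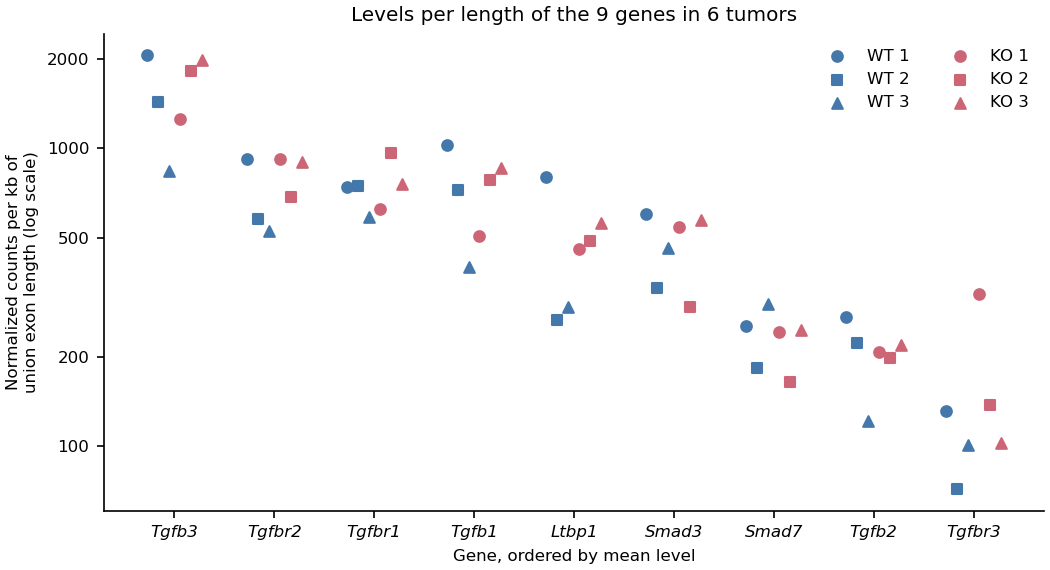
Normalized counts per kb of union exon length (vertical axis, log scale) for the 9 TGF-β genes, ordered by their mean level, with 1 point per tumor, WT in blue and *Tgm2* knockout in red. Neighbouring genes overlap, and the mean levels run from 1561 for *Tgfb3* to 145 for *Tgfbr3*.

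Within the ligands, shares of the summed level per kb were steady across tumors. *Tgfb3* made up 61.3%, 60.2% and 61.6% in WT and 63.6%, 65.0% and 64.7% in knockout tumors. *Tgfb2* made up between 7.05% and 10.5% in all 6 tumors. With the longest coding transcript as the length, the *Tgfb3* share was 43.4%, 42.5% and 44.0% in WT and 46.9%, 47.2% and 46.9% in knockout tumors, so that its size moved with the length used. This share restates the ratio of *Tgfb1* to *Tgfb3* given above, in which a change of length multiplies all tumors alike, and it is no further evidence. Within the receptors, *Tgfbr3* made up 7.31%, 5.13% and 8.30% in WT and 17.4%, 7.72% and 5.80% in knockout tumors, with knockout tumor 1 apart.

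The genes whose log2 values followed *Tgfb1* most closely over the 6 tumors were *Sh3glb1*, *Gpsm3* and *Prkcsh*, each with a Pearson r of 0.997, 0.997 and 0.996 in turn. With 6 tumors, 314 of 12991 genes with a mean of at least 100 normalized counts reached an r of 0.9 with *Tgfb1*, so that a high r was not rare. For *Ltbp1* the closest genes were *Nkain1* at 0.999, *Snx19* at 0.996 and *Megf6* at 0.995, and 140 of 12991 genes reached 0.9. These values describe the order of the same 6 libraries and were not tested.

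Signalling genes beyond the 9 were also without a call. Among the 15 co-receptors and signal transducers, 12 fold changes were positive and 3 negative, with a median log2 value of 0.06, and none reached an unadjusted p below 0.05. *Smad4*, the partner of all receptor-regulated SMADs, was the steadiest of those named, at 2604, 2694 and 2815 normalized counts in WT and 2631, 2590 and 3007 in knockout tumors. The groups overlapped almost completely, at a log2 fold change of 0.02 ± 0.17 (SE). The endothelial co-receptor *Eng* and the endocytic adaptor *Dab2* had log2 fold changes of 0.53 ± 0.33 and 0.33 ± 0.23 (SE).

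Among the 17 negative regulators, 11 fold changes were positive and 6 negative, with a median of 0.08. At an unadjusted p below 0.05, 1 of 17 was higher, beside 3.40% of all genes, and in 1 of 17 every knockout tumor was above the WT tumors, beside 5.18%. *Fst*, which encodes the activin-binding protein follistatin, was the gene at an unadjusted p below 0.05, with 837, 404 and 276 normalized counts in WT and 1395, 741 and 947 in knockout tumors. The groups overlapped, since knockout tumor 2 lay below WT tumor 1, and the log2 fold change was 1.13 ± 0.42 (SE). *Smad6*, the inhibitory SMAD of the BMP branch, was the gene without overlap, with 623, 650 and 658 in WT and 856, 704 and 937 in knockout tumors (log2 fold change 0.36 ± 0.21, SE). *Fst* and *Smad6* were named after their values were seen. The most abundant genes of this list, *Fkbp1a*, *Strap* and *Pmepa1*, had log2 fold changes of -0.25 ± 0.31, 0.01 ± 0.25 and 0.08 ± 0.34 (SE).

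Of 32 transcriptional targets of TGF-β, 19 had positive and 13 negative fold changes, with a median log2 value of 0.09. None passed both limits, 1 was higher and 2 were lower at an unadjusted p below 0.05, and 2 had groups without overlap, both lower in knockout tumors. Over all genes, 3.40% were higher and 2.38% lower at that p, and 5.33% were lower without overlap, and *Tagln* and *Bhlhe40* are named by rule rather than as a result about the list. *Tagln*, which encodes the actin-binding protein transgelin of smooth muscle and myofibroblasts, had 18854, 27320 and 23830 normalized counts in WT and 15043, 9948 and 4640 in knockout tumors. The knockout tumors were all lower, at a log2 fold change of -1.38 ± 0.41 (SE, limma adjusted p = 0.670). Of its 1988 exon bases, 1349 are shared with genes on the opposite strand, among them *Pcsk7*, which had 845, 789 and 1159 normalized counts in WT and 873, 691 and 758 in knockout tumors. *Bhlhe40*, a transcriptional repressor, had 6207, 6075 and 7420 in WT and 4343, 3783 and 5474 in knockout tumors, at a log2 fold change of -0.55 ± 0.21 (SE, limma adjusted p = 0.819).

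Smooth muscle and pericyte markers were, like *Tagln*, lowest in knockout tumors 2 and 3. They summed to 61904, 37602 and 30456 normalized counts in WT and 45785, 18904 and 15579 in knockout tumors. Of the 10 markers, 8 had negative fold changes, with a median log2 value of -0.69, none was at 0 in any tumor, and the kinase gene *Mylk* made up 24.6% of the sum. Per kb, the most abundant of them was *Actg2*, an actin gene of visceral smooth muscle, with 11045, 6069 and 2411 normalized counts in WT and 7562, 1412 and 313 in knockout tumors. *Acta2*, the smooth muscle actin gene among the targets, had 29399, 21571 and 9176 in WT and 25933, 9856 and 4333 in knockout tumors. Among the WT tumors the orders differed, since WT tumor 1 had the highest marker sum and the lowest *Tagln* value. The groups of *Acta2* overlapped, and the part of smooth muscle RNA in the *Tagln* values was not tested.

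Other targets had estimates of either sign. *Ccn2*, the matricellular growth factor CTGF, had 13938, 11371 and 8698 normalized counts in WT and 7509, 13403 and 13820 in knockout tumors. The groups overlapped, at a log2 fold change of 0.00 ± 0.31 (SE). The most abundant targets, *Sparc*, *Vim* and *Col1a1*, had log2 fold changes of 0.08 ± 0.57, -0.02 ± 0.38 and 0.63 ± 0.50 (SE). For all 3, WT tumor 3 was the lowest of the 6 tumors, as it was for the ligands.

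**Figure D5:**
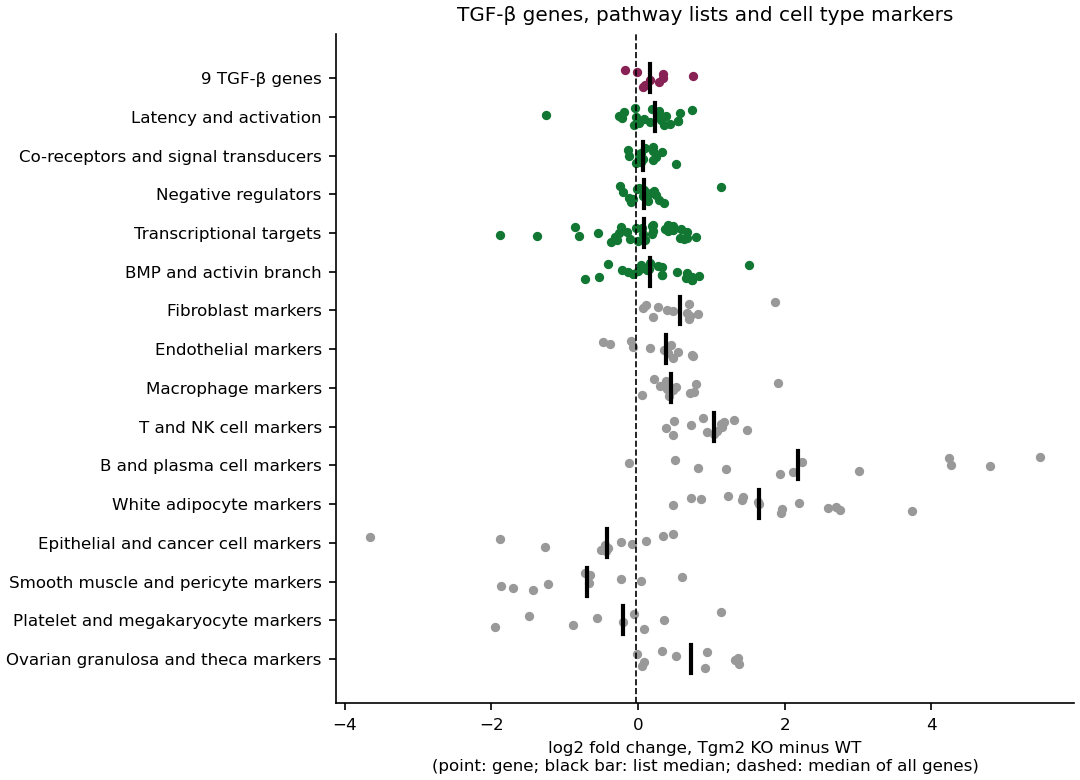
Log2 fold change (knockout minus WT, horizontal axis) of every tested gene in the 9-gene group, the 5 pathway lists and the cell type marker lists, with 1 point per gene, a black bar at each list's median and a dashed line at the median of all genes (-0.03). The pathway lists centre between 0.06 and 0.23, while the B and plasma cell markers centre at 2.18 and the white adipocyte markers at 1.65.

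The marker lists place these values in the tumor as a whole. Epithelial RNA was present, although injected cancer cells and host epithelium cannot be told apart by these markers. The keratin gene *Krt19*, the most abundant epithelial and cancer cell marker per kb, had 15464, 18236 and 15516 normalized counts in WT and 11811, 11260 and 14270 in knockout tumors. Epithelial and cancer cell markers summed to 72764, 85375 and 89781 in WT and 66558, 62485 and 70388 in knockout tumors. These sums did not overlap between the groups, but the mean log2 levels of the same markers did, at 11.01, 11.45 and 12.49 in WT and 11.41, 11.22 and 10.33 in knockout tumors. Of the 12 listed, 9 fold changes were negative, with a median of -0.42, and *Wt1* made up 22.7% of the sum. At an unadjusted limma p below 0.05, 1 of 12 was lower, beside 2.38% of all genes. In 3 of 12 every knockout tumor was below every WT tumor, beside 5.33%. White adipocyte markers summed to 53789, 67032 and 40379 in WT and 58891, 214694 and 129361 in knockout tumors. These sums overlapped, but the mean log2 levels of the same markers did not, at 9.02, 9.73 and 8.90 in WT and 10.33, 11.96 and 10.82 in knockout tumors. Fold changes of the adipocyte markers were positive for 15 of 15. Of these, 1, the leptin gene *Lep*, passed both limits, beside 0.102% of all genes. In limma, 12 of 15 were higher at an unadjusted p below 0.05, beside 3.40% of all genes. In 7 of 15 every knockout tumor was above every WT tumor, beside 5.18%. No adipocyte marker passed both limits with any 1 of the 6 tumors left out. The lipase *Lpl* made up 31.8% of the sum, *Cfd*, which encodes adipsin, was the most abundant per kb, and 1 marker was at 0 in at least 1 tumor.

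Immune and vascular markers were counted in the same way. B and plasma cell markers had a median log2 fold change of 2.18. In limma, 5 of 12 passed both limits, beside 0.102% of all genes. These were the immunoglobulin genes *Igkc*, the most abundant per kb, and *Igha*, and the joining chain gene *Jchain*. The others were *Mzb1* of plasma cells and the B cell receptor component *Cd79a*. The number past both limits was 1 without WT tumor 2, and 3 without WT tumor 1 or without knockout tumor 2. It was 0 with the mean log2 level of white adipocyte markers as a covariate, which itself did not overlap between the groups. Counting changed limits too, 7 alternatives moved this number clearly and 10 did not, so those named are examples. T and NK cell markers, led per kb by the T cell receptor gene *Trac*, summed to 2047, 1274 and 1099 in WT and 2057, 2387 and 4061 in knockout tumors, with a median of 1.03. The sums did not overlap, but by a narrow margin between WT tumor 1 and knockout tumor 1, and the mean log2 levels of the same markers did overlap. In limma, 0 of 13 passed both limits and 2 of 13 were higher at an unadjusted p below 0.05, beside 3.40% of all genes, and in 5 of 13 every knockout tumor was above the WT tumors, beside 5.18%. Endothelial markers, led by *Plvap*, had a median of 0.38, with 8 positive and 4 negative, and platelet and megakaryocyte markers, led by *Pf4*, a median of -0.20 over the 9 tested, with 3 positive and 6 negative. Neither list had a gene past both limits, while 1 of 12 endothelial genes was higher and 1 of 9 platelet genes lower at an unadjusted p below 0.05 in limma, beside 3.40% and 2.38% of all genes. The parts of these cell types in the levels of the TGF-β genes were not tested.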

How the data were processed

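Poly(A) RNA of 6 tumors was sequenced by the authors on a NovaSeq in paired reads and quantified with kallisto 0.46.2 on GRCm38, per the labels and the study's methods. The deposited table is labelled as TPM. Its columns do not share the fixed sum that TPM has, and their median-of-ratios size factor was 1.0018 in each tumor, so its values were treated as signal: counts that the authors had divided by size factors. The test was planned for TPM and was kept, since both are normalized values. Whole read numbers were not recovered, so the depth of each library is unknown.

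Values were analysed as log2(value + 1), for the 19667 of 20076 genes that reached 1 in 3 or more tumors, with limma 3.58.1 in R 4.3.3, a mean-variance trend and Benjamini-Hochberg adjustment over all genes tested. Fold changes are on this scale and understate those of low genes. Single genes also had an exact permutation test. Both limits were those of the study. Lengths and positions are from GENCODE M21 on GRCm38, the deposited names being matched by symbol. Nothing says whether the 3 tumors of a group came from separate litters or cages, so p-values measure the spread between these tumors.

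The 9 genes and all lists were chosen with earlier results of these data known. Genes named are the 9, *Tgm2*, in each pathway list the 3 most abundant per kb, any past both limits and any at an unadjusted p below 0.05 without overlap, the most abundant gene per kb of each marker list, and the 3 closest to *Tgfb1* and to *Ltbp1*. Others named were chosen after their values were seen. Where the summed counts of a marker list are set beside a TGF-β gene, the gene with the largest share of the sum is given too. The fit was tested on simulated data, with changes far larger than any estimate for the 9 genes. That check therefore does not show how often the fit would miss changes of their size. The values of 1 listed target are not reported here.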

Additional observations from a re-analysis of the deposited data

How the results depend on the processing

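Of the 9 TGF-β genes, 0 passed both limits in all 16 settings that kept both limits, the reported setting included, as did 0 genes of the 5 pathway lists. Over all genes, 20 passed both limits, against 5 with the replicate block and 4 without the mean-variance trend. The number was 0 with the mean log2 level of the white adipocyte markers as a covariate, and 2 to 14 with 1 tumor left out. It was 1137 (668 higher, 469 lower) at an unadjusted limma p below 0.05 with no fold limit. Deviations of same-numbered tumors correlated at -0.196, 0.284 and -0.307, while WT tumor 1 with knockout tumor 3 reached 0.359. These values gave no sign that replicate numbers pair the tumors, but so few cannot exclude a shared litter, cage or batch. The median log2 fold change of the 9 genes, 0.16 as reported, was 0.67 with the adipocyte covariate and ran from -0.00106 to 0.37 with 1 tumor left out. With this covariate, estimates of the single genes changed sign to -0.52 for *Tgfb1*, -0.0306 for *Tgfb2*, -0.21 for *Tgfb3*, -0.48 for *Tgfbr1*, 1.14 for *Smad3* and 0.67 for *Smad7*. Array weights gave -0.0738 for *Tgfb1* and -0.0487 for *Tgfb2*. With 1 tumor left out, the estimates ran from -0.30 to 0.37 for *Tgfb1*, -0.24 to 0.34 for *Tgfb2*, -0.0555 to 0.59 for *Tgfb3*, -0.00138 to 0.31 for *Tgfbr1*, -0.22 to 0.30 for *Smad3* and -0.37 to 0.0159 for *Smad7*. The cause of these changes was not tested. Estimates of *Tgfbr2*, *Tgfbr3* and *Ltbp1* kept their positive sign under every alternative run. An unadjusted p below 0.05 appeared for *Ltbp1* and *Tgfbr2* without WT tumor 1, for *Tgfbr3* with the replicate block, with the covariate and without knockout tumor 3, and for *Smad3* with the covariate. The replicate block changed no other call among the TGF-β genes. With 3 tumors per group, the intervals leave changes of up to 1.84-fold for *Tgfb1* and 3.34-fold for *Tgfbr3* inside their bounds.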

Other observations

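The BMP and activin branch, which belongs to the same ligand superfamily and also uses SMAD4, had 25 listed genes, of which 18 had positive and 7 negative log2 fold changes, with a median of 0.17. None passed both limits, 1 was higher at an unadjusted p below 0.05, and 5 had every knockout tumor above every WT tumor while 1 had every one below, beside 5.18% and 5.33% of all genes. The median was -0.04 without knockout tumor 1. *Bmp4*, a BMP ligand of stroma and ovary, had 816, 1088 and 533 normalized counts in WT and 1236, 1405 and 1261 in knockout tumors. Every knockout tumor lay above every WT tumor, at a log2 fold change of 0.74 ± 0.28 (SE, limma adjusted p = 0.813). *Inha*, *Id3* and *Fstl1*, the most abundant genes of the list per kb, had log2 fold changes of 0.83 ± 0.39, 0.27 ± 0.27 and 0.17 ± 0.47 (SE). *Inha*, a gene of granulosa cells, had 2585, 5495 and 2892 normalized counts in WT and 10367, 5318 and 4197 in knockout tumors. Knockout tumor 1 was the highest, as it was for 8 of the 10 granulosa and theca markers tested, and their part in the *Inha* values was not tested.

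The other genes of this list without overlap were named after their values were seen. *Bmp7* had 609, 547 and 497 normalized counts in WT and 629, 787 and 1535 in knockout tumors, *Inhbb* 2729, 2935 and 2086 against 3498, 2968 and 3176 (this gene is also in the granulosa marker list), and *Id2*, a target of BMP signalling, 1382, 1777 and 1896 against 2001, 2329 and 1978. The BMP antagonist *Nog* was low, at 7.56, 7.29 and 7.10 in WT and 64.4, 14.7 and 11.9 in knockout tumors, with knockout tumor 1 apart. *Chrd*, another BMP antagonist, was the gene below, at 704, 782 and 620 in WT and 485, 502 and 601 in knockout tumors. *Id1*, a BMP and TGF-β target counted among the TGF-β targets, had 1108, 1703 and 1242 in WT and 1640, 2688 and 2120 in knockout tumors, with groups that overlapped and a log2 fold change of 0.66 ± 0.25 (SE).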
